A study of Mus musculus with 6 samples.

Results

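The nuclear genes of oxidative phosphorylation were followed in mouse liver, with the 5 complexes of the respiratory chain and ATP synthase kept apart. Members were the genes whose symbol began with Nduf followed by a, b, c, s or v (complex I), was Sdha, Sdhb, Sdhc or Sdhd (complex II), began with Uqcr or was Cyc1 (complex III), began with Cox4 to Cox8 (complex IV), or began with Atp5 (complex V). The rule used names and no measured value, but it was chosen with earlier results of these data known. It found 85 of the 12393 genes that had a probe set with 1 symbol. Sorted by symbol, these were 34 subunits of complex I, 4 of complex II, 9 of complex III, 16 of complex IV and 17 of complex V. The other 5 were complex I assembly factors, which help to build the complex and do not stay in it. The symbol alone set the complex, so Ndufa4 is counted in complex I and Cox7a2l in complex IV whatever the place of their proteins. Each gene was represented by its brightest probe set. Of these genes, 83 were bright enough to be tested, and Cox6b2 and Cox8b were not.

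Liver total RNA of Swiss-Webster mice, an outbred stock, was hybridized to 6 Affymetrix arrays. The fraction 1 livers (arrays a and b) came from mice whose diet contained 1% of a hexane fraction for 21 days, the fraction 2 livers (arrays a and b) from mice given 1% of a methanol fraction for the same time, and the control livers (arrays 1 and 2) from mice on the control diet. The series is titled after Boswellia serrata, the tree that yields Indian frankincense resin. Age and sex are not stated in the labels, nor is it stated if an array holds RNA of 1 mouse or of a pool, so p-values measure the spread between these samples only.

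Oxidative phosphorylation makes most of the ATP of a hepatocyte. Complexes I and II take electrons from NADH and succinate and pass them by way of ubiquinone to complex III, cytochrome c carries them to complex IV, which reduces oxygen, and complex V uses the proton gradient built by complexes I, III and IV to make ATP. Nearly all subunits are encoded in the nucleus, and a small set of core membrane subunits of complexes I, III, IV and V is encoded in mitochondrial DNA. In bulk liver RNA, fewer cells that express a gene and less RNA per cell cannot be told apart.

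The livers carried the hepatocyte markers. Alb, the gene of serum albumin, had signals of 22132 and 20636 in fraction 1 livers, 19052 and 18755 in fraction 2 livers, and 23475 and 27250 in control livers. Median signals over all probe sets were 139 to 167 on the 6 arrays. Control array 2 stood apart in RNA quality: its 3'/5' signal ratio was 3.87 for actin and 1.74 for Gapdh, against 2.13 to 2.64 and 1.07 to 1.38 on the other 5 arrays. Control array 1 and fraction 2 array a were scanned on another day than the other 4 arrays, and the arrays came from 3 chip lots, with control array 2 and fraction 1 array a in lot 1, control array 1 and fraction 2 array a in lot 2, and both b arrays in lot 3.

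No oxidative phosphorylation gene passed the test in any comparison. Of 83 tested members, 0 had an adjusted p under 0.05 when fraction 1 livers were set against control livers, 0 when fraction 2 livers were, and 0 when the fractions were compared (limma across all tested probe sets, Benjamini-Hochberg). The lowest adjusted p among them was 0.341, 0.606 and 0.587 in these comparisons. Over all 14755 tested probe sets, 0.712% passed with fraction 1 against control, 0.108% with fraction 2 and 0.0136% in the comparison of the fractions, and the members' counts of 0 lie near that background. At an unadjusted p under 0.05 4 members passed with fraction 1 against control, 6 with fraction 2 and 2 in the comparison of the fractions. All tested genes gave 12.9%, 7.23% and 7.96% at that threshold.

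The subunit genes were measured with little spread between replicate arrays on their brightest probe sets. The intervals given here reflect that spread only. They do not cover disagreement between the probe sets of a gene, as found for Ndufv1 below. The median SE of a member's log2 fold change was 0.15, against 0.24 for all 9209 tested genes. The 95% confidence interval lay wholly within a 2-fold change in either direction for 78 of 83 members in each comparison, while 6268, 6518 and 6417 of 9209 tested genes met that bound with fraction 1 and with fraction 2 against control and in the comparison of the fractions, in this order. Within a 1.5-fold change lay the intervals of 60, 56 and 52 members in the same comparisons. Mean signals of the 78 tested subunits ran from 95.6 to 19115 with a median of 6792, and 72 were over 1000. Signals of different probe sets are not amounts of RNA on a shared scale and are not ranked here. The median SD between replicate arrays was 0.15 on the log2 scale for subunits and 0.23 for all tested genes.

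**Figure D1:**
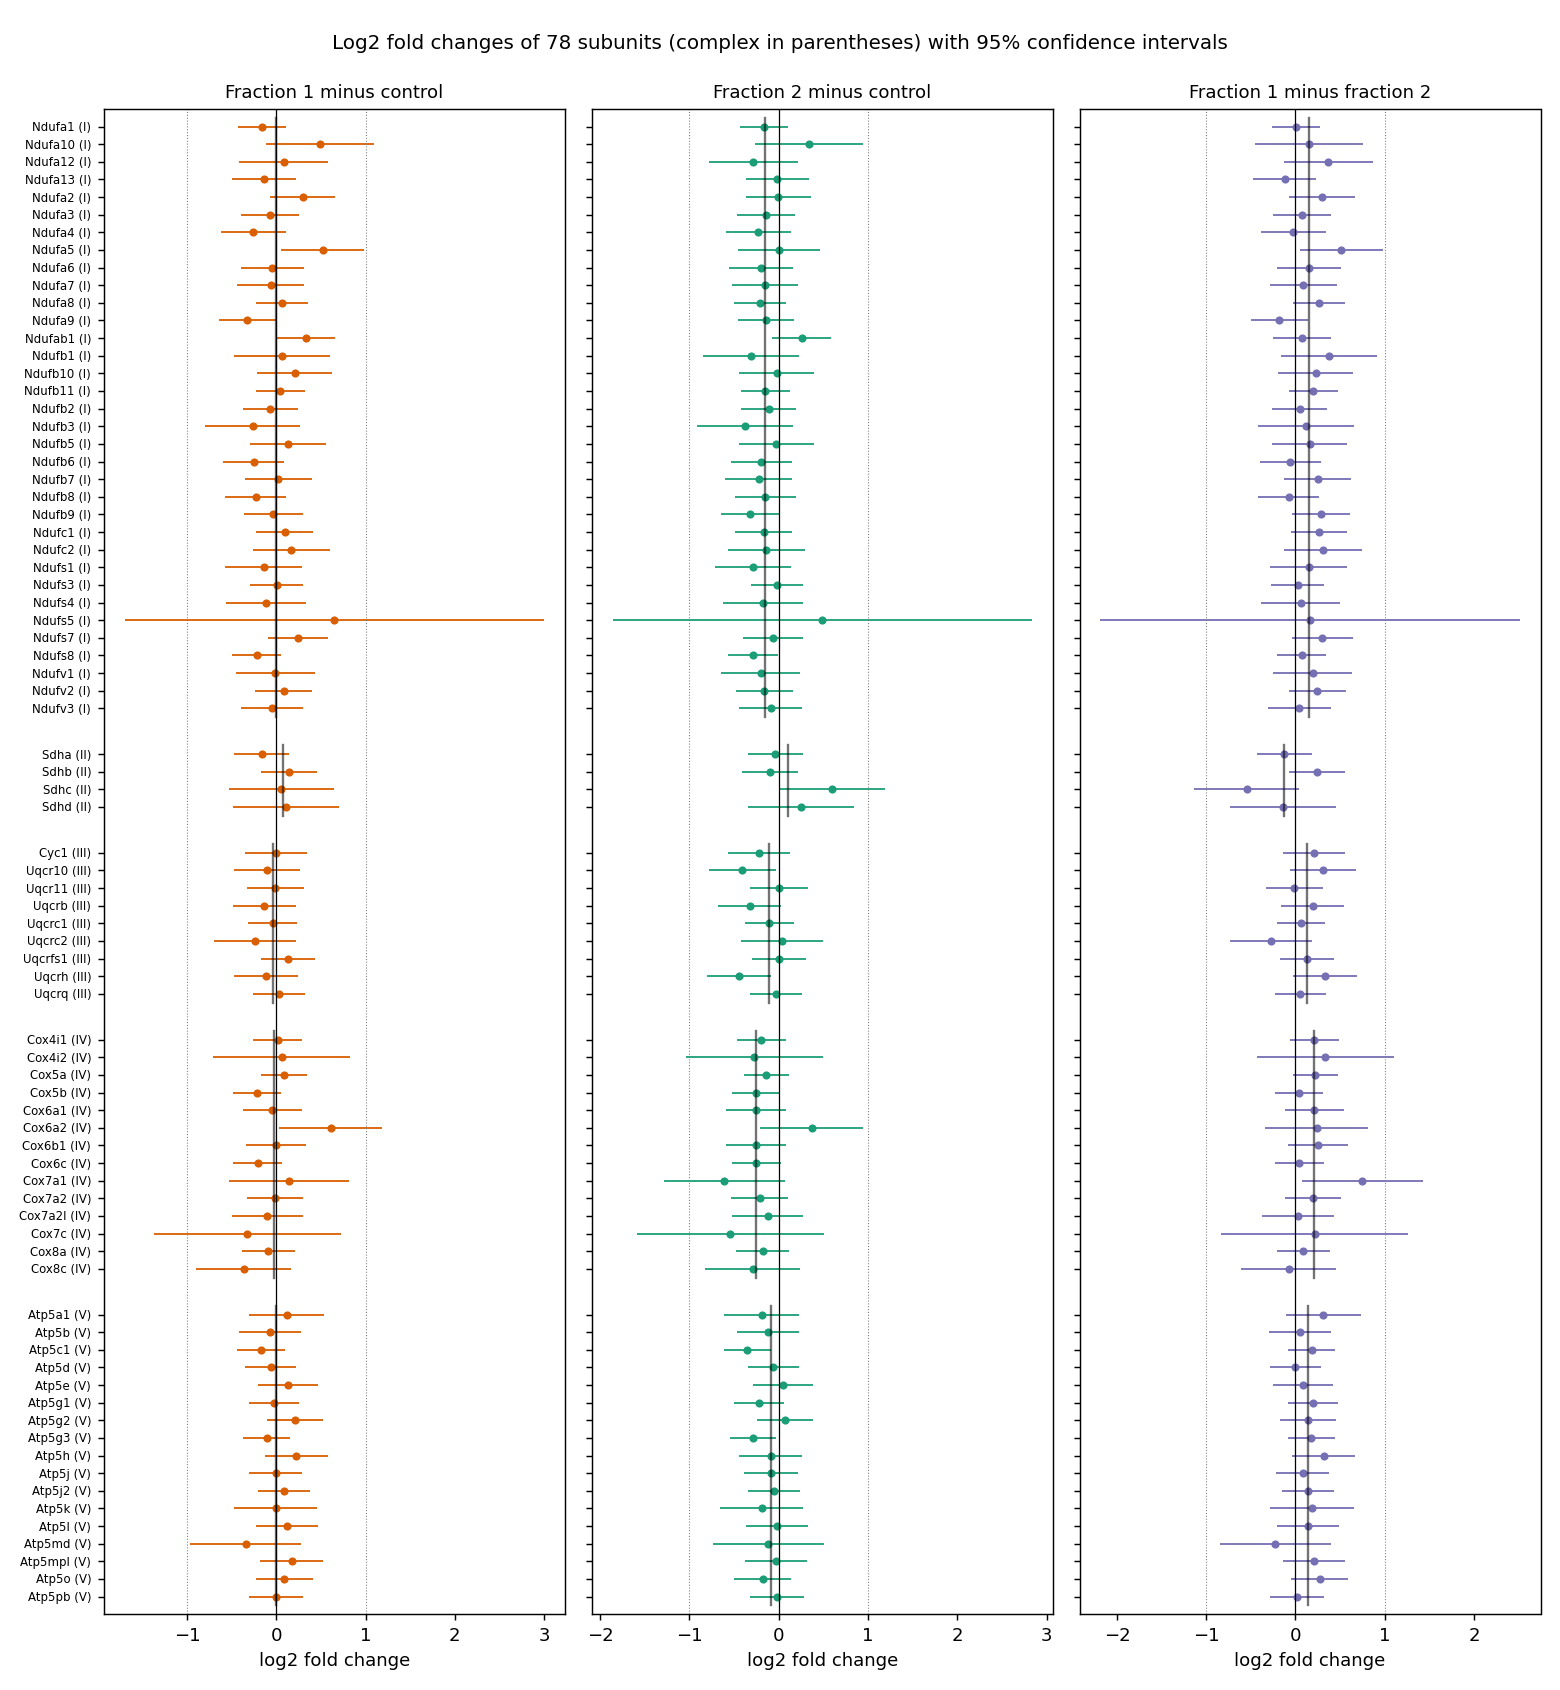
Log2 fold changes (points) and 95% confidence intervals (lines) of the 78 tested subunits in 3 comparisons, with the complex of each gene in parentheses. Dotted lines mark a 2-fold change and the vertical black bars the median of each complex: most intervals are narrow and cross 0, Ndufs5 has the widest interval, and the medians of fraction 2 minus control lie below 0 in complexes I, III, IV and V.

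For fraction 1 against control, the members were centred near 0. Their median log2 fold change was -0.006, against -0.03 for all tested genes. Of 83 members, 38 were above 0 and 45 below, a share below 0 of 54.2% where all tested genes gave 53.7%. Both fraction 1 arrays lay above both control arrays for 16 members and below both for 12, and the shares over all tested genes were 18.6% and 23.3%. By complex the medians were -0.002 for complex I, 0.08 for complex II, -0.04 for complex III, -0.03 for complex IV and 0.000 for complex V. Without control array 2 the members' median was 0.08, and without control array 1 it was -0.06.

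For fraction 2 against control, 68 of 83 members were below 0, or 81.9%, where all tested genes gave 56.9%. The median log2 fold change of the members was -0.14, against -0.05 for all tested genes. Both fraction 2 arrays lay below both control arrays for 26 members and above both for 1, Ndufab1, and over all tested genes the shares were 21.6% and 14.6%. No member passed the test, and the members share arrays, so the count describes these 4 arrays and is no test. How far the members lay below 0 depended on the scaling of the arrays and on control array 2. After quantile normalization 56 of 83 members were below 0 with a median of -0.04. After centring each array on its median 46 were below 0 with a median of -0.02, and without control array 2 the median was -0.055 with 55 below 0. Centring moves every gene of an array by the same amount, so it left the distance between members and all tested genes as it was. For the other settings that distance is not given here. Within the scan days, fraction 2 array b minus control array 2 had a median of -0.16 over members and -0.08 over all tested genes, and fraction 2 array a minus control array 1 had -0.09 over members and -0.03 over all tested genes.

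For fraction 1 against fraction 2, 68 of 83 members were above 0 and 15 below, a share below 0 of 18.1% against 47.2% of all tested genes. The median log2 difference was 0.15 for members and 0.02 for all tested genes. Both fraction 1 arrays lay above both fraction 2 arrays for 42 members and below both for 5, where all tested genes gave 25.9% and 21.9%. With the scan day as a block the median was 0.07, with the chip lot as a block 0.07, after quantile normalization 0.07 with 27 members below 0, and after median centring 0.06 with 34 below 0. Centring again moved members and all tested genes alike, so the distance between them stayed the same. Within the first scan day, the mean of both fraction 1 arrays minus fraction 2 array b gave 0.09 with 26 members below 0, and the second scan day held no fraction 1 array. The 3 comparisons share arrays and are therefore not independent of each other. The plot of medians by setting shows how far each choice moved them.

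**Figure D2:**
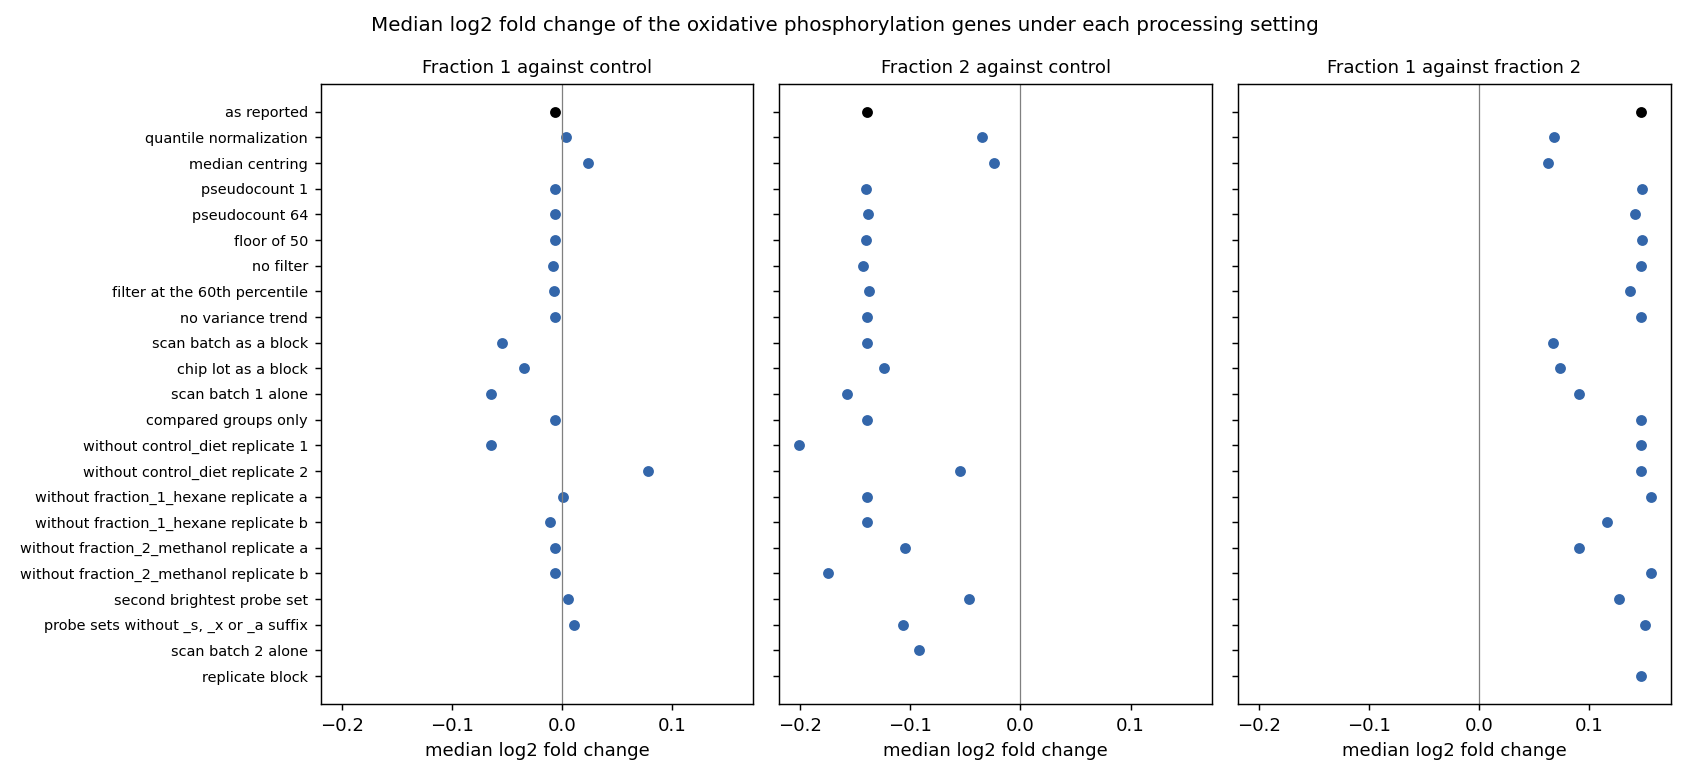
Median log2 fold change of the oxidative phosphorylation genes (horizontal axis, shared by the 3 comparisons) under each processing setting, with the reported value in black. The median of fraction 2 against control lies between -0.20 and -0.02 under the settings shown, and that of fraction 1 against fraction 2 between 0.06 and 0.16.

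Set out by array, extremes gathered on 2 of the 6 arrays. Of 78 subunits, 39 had their highest signal on control array 2 and 37 their lowest on fraction 2 array a. The median deviation of a subunit from its own mean over the 6 arrays was 0.05 and 0.05 (log2) on fraction 1 arrays a and b, -0.13 and -0.05 on fraction 2 arrays a and b, and -0.05 and 0.13 on control arrays 1 and 2. Control array 2 also had the highest median deviation over all tested genes, 0.08, and the highest actin 3'/5' ratio. Fraction 2 array a had the lowest median deviation over all tested genes, -0.03. How often all tested genes had their extremes on these arrays was not counted. The part of RNA quality in the subunits' values was not tested.

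**Figure D3:**
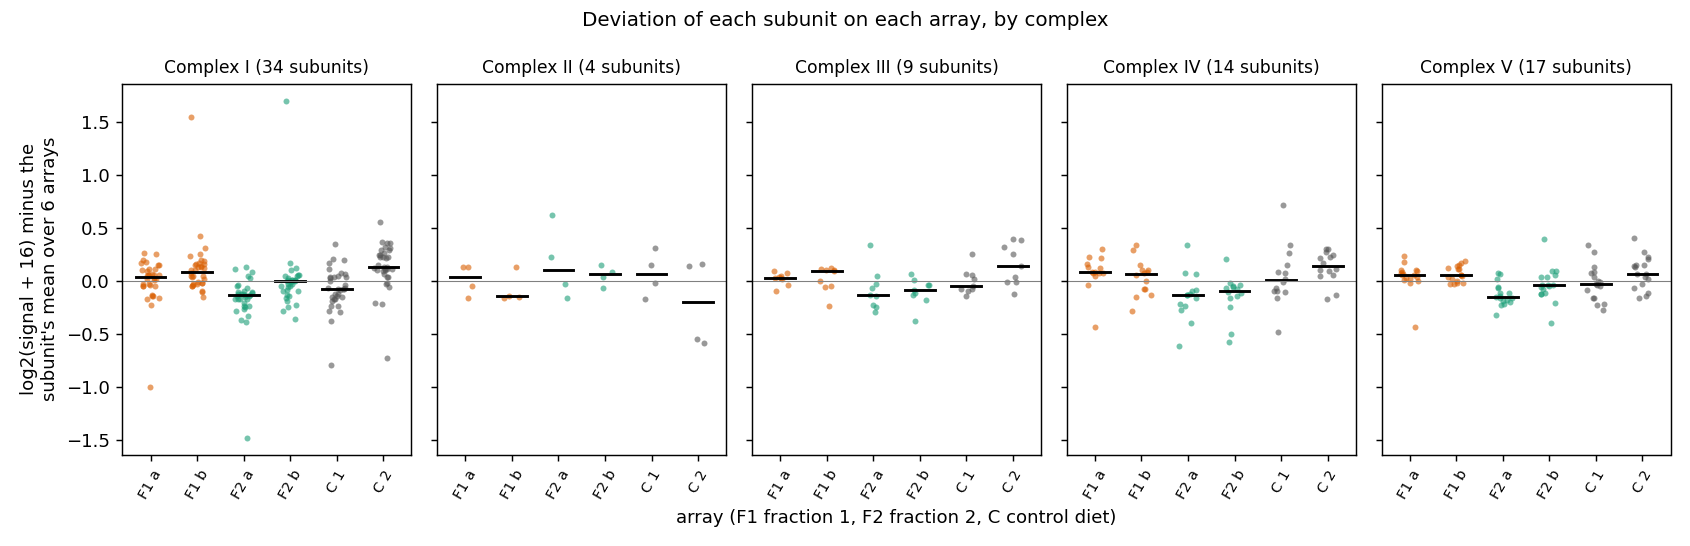
Log2 deviation of each tested subunit from its own mean on each array (points), by complex, with the median of the complex on that array (black bars). In complexes I, III, IV and V the median is highest on control array 2 and lowest on fraction 2 array a, while complex II has its lowest median on control array 2.

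Complex I, NADH dehydrogenase, was represented by 6 core subunits, which belong to the conserved core that carries out electron transfer, and 28 accessory subunits. On their brightest probe sets all 6 core subunits were below 0 for fraction 2 against control, from -0.29 to -0.02. All 6 were above 0 for fraction 1 against fraction 2, from 0.02 to 0.30. For fraction 1 against control 3 were above 0 and 3 below. Ndufs8, an iron-sulphur core subunit, had signals of 7838 and 7812 in fraction 1 livers, 7346 and 7569 in fraction 2 livers, and 8743 and 9483 in control livers. All 4 arrays of the fractions lay below both controls, with log2 fold changes of -0.22 (SE 0.12, adjusted p = 0.525) for fraction 1 and -0.29 (adjusted p = 0.706) for fraction 2 against control. Its 5 other probe sets gave -0.41 to 0.02 for fraction 2 against control. The other core subunits were Ndufs1 (-0.14 for fraction 1 and -0.29 for fraction 2 against control), Ndufs3 (0.005 and -0.02), Ndufs7 (0.24 and -0.06, with -0.003 and -0.22 on its second probe set), Ndufv2 (0.08 and -0.16) and Ndufv1, described next.

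Ndufv1 encodes the subunit that binds NADH and FMN, and its probe sets disagreed. The brightest gave signals of 3980 and 4297 in fraction 1 livers, 3642 and 3590 in fraction 2 livers, and 5046 and 3428 in control livers, a log2 fold change of -0.008 for fraction 1 against control. The second gave 4248 and 4206 in fraction 1 livers, 3038 and 3555 in fraction 2 livers, and 1842 and 2877 in control livers. On that probe set fraction 1 lay 0.87 above control on the log2 scale (adjusted p = 0.141), and on the third 0.65 above it (adjusted p = 0.139), the lowest adjusted p of all 151 tested probe sets of the members. On both of these probe sets all 4 arrays of the fractions were above both controls, whereas on the brightest they lay between the 2 control arrays.

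Among the accessory subunits of complex I, 14 of 28 were above 0 for fraction 1 against control, 24 were below 0 for fraction 2 against control and 23 were above 0 between the fractions. Ndufa5, a subunit of the arm that reduces ubiquinone, had 3722 and 4169 in fraction 1 livers, 2400 and 3161 in fraction 2 livers, and 2376 and 3169 in control livers. Both fraction 1 arrays were above the other 4, by 0.52 (log2, SE 0.20, adjusted p = 0.341) against control and by 0.51 (adjusted p = 0.591) against fraction 2. A second probe set of Ndufa5 gave -0.03 for fraction 1 against control. Ndufab1, the mitochondrial acyl carrier protein, had 4846 and 4981 in fraction 1 livers, 4337 and 5029 in fraction 2 livers, and 3969 and 3844 in control livers, with the 4 arrays of the fractions above both controls by 0.33 (adjusted p = 0.398) for fraction 1 and 0.26 (adjusted p = 0.765) for fraction 2. Its dimmer probe sets gave 0.23 and 0.10 for fraction 1, and -0.02 and -0.18 for fraction 2. Ndufa9, a subunit close to the ubiquinone site, had 3866 and 4226 in fraction 1 livers, 4623 and 4539 in fraction 2 livers, and 5239 and 4885 in control livers, which put both fractions below both controls. The log2 fold change of Ndufa9 was -0.32 (SE 0.14, adjusted p = 0.391) for fraction 1 and -0.14 (adjusted p = 0.837) for fraction 2.

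Ndufs5, an accessory subunit of the membrane arm, had the widest spread of the subunits. Its signals were 539 and 3223 in fraction 1 livers, 381 and 3591 in fraction 2 livers, and 625 and 1121 in control livers. The high values were those of both b arrays, which are also the 2 arrays of chip lot 3, and the groups overlapped. The SD between replicate arrays was 1.70 on the log2 scale, and the log2 fold changes of 0.65 (SE 1.03) for fraction 1 and 0.49 for fraction 2 against control are not distinguishable from 0. The part of the chip lot was not tested, and the labels do not say what the letters a and b stand for.

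Complex II, succinate dehydrogenase, has 4 subunits and no mitochondrially encoded one. Its median was 0.11 for fraction 2 against control and -0.13 for fraction 1 against fraction 2, where complexes I, III, IV and V had medians of -0.25 to -0.09 and 0.13 to 0.21. That difference between complexes was not tested. Under the alternatives the complex II medians ran from -0.04 to 0.28 and from -0.23 to -0.04. Against control, the members above 0 in fraction 2 were the membrane anchor genes Sdhc and Sdhd, and between the fractions Sdhc, Sdhd and Sdha were below 0 and Sdhb above. Sdhc had 2742 and 2729 in fraction 1 livers, 4709 and 3401 in fraction 2 livers, and 3411 and 2030 in control livers. Its log2 fold change was 0.60 (SE 0.26, adjusted p = 0.710) for fraction 2 against control, with overlapping groups, and -0.55 (adjusted p = 0.630) for fraction 1 against fraction 2, with groups apart. The second probe set of Sdhc gave 0.18 and -0.18 for the same contrasts. Sdhd had 6165 and 5064 in fraction 1 livers, 6593 and 5766 in fraction 2 livers, and 6991 and 3844 in control livers, with control array 2 the lowest for both anchors. Its log2 difference was 0.11 with fraction 1 and 0.25 with fraction 2 against control, and -0.14 when the fractions were compared, while its second probe set gave 0.63, 0.27 and 0.36, the last with the opposite sign. Sdha, the flavoprotein, gave -0.16 for fraction 1 and -0.04 for fraction 2 against control and -0.13 for fraction 1 against fraction 2, with both fraction 1 arrays below both fraction 2 arrays. Sdhb, the iron-sulphur subunit, gave 0.15, -0.10 and 0.25 in the same comparisons.

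Complex III, the cytochrome bc1 complex, had 6 of 9 subunits below 0 for fraction 2 against control and 7 above 0 between the fractions. The lowest values were in small subunits. Uqcrh, the hinge protein that sits beside cytochrome c1, had 5521 and 5916 in fraction 1 livers, 4960 and 4173 in fraction 2 livers, and 5662 and 6775 in control livers. Both fraction 2 arrays lay below the other 4, with log2 differences of -0.44 (SE 0.16, adjusted p = 0.647) for fraction 2 against control and 0.33 (adjusted p = 0.630) for fraction 1 against fraction 2. Uqcr10, another small subunit, had 8386 and 8841 in fraction 1 livers, 6679 and 7252 in fraction 2 livers, and 7911 and 10781 in control livers, a log2 fold change of -0.41 (adjusted p = 0.677) for fraction 2 against control, while its other probe sets gave -0.02 and 0.07. Of the core genes, Uqcrfs1, the Rieske iron-sulphur protein, gave 0.13 for fraction 1 and 0.004 for fraction 2 against control, Cyc1, cytochrome c1, -0.004 and -0.22, Uqcrc1 -0.04 and -0.10, and Uqcrc2 -0.23 and 0.04 (0.16 and 0.02 on its second probe set).

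Complex IV, cytochrome c oxidase, had the lowest median of the complexes for fraction 2 against control, -0.25, with 13 of 14 tested subunits below 0 and 8 of them with both fraction 2 arrays below both controls, where all tested genes gave 21.6%. Under the alternatives this median ran from -0.28 to -0.06, the upper end on the second brightest probe sets. That of complex I ran from -0.23 to -0.04 and so also stayed below 0. Those of complexes III and V ran from -0.18 to 0.012 and from -0.16 to 0.026. Within the scan days the median was -0.24 with 14 of 14 below 0 for fraction 2 array b minus control array 2, and -0.17 with 12 of 14 below 0 for fraction 2 array a minus control array 1. Cox5b, a subunit that binds zinc, had 12722 and 12394 in fraction 1 livers, 11922 and 12535 in fraction 2 livers, and 15682 and 13542 in control livers. Its log2 fold change was -0.22 (adjusted p = 0.524) for fraction 1 and -0.25 (SE 0.12, adjusted p = 0.743) for fraction 2. Its next 3 probe sets by brightness gave -0.06, -0.05 and -0.001 for fraction 1, and -0.23, -0.08 and -0.13 for fraction 2. Cox4i1, the subunit isoform of most tissues, had 12562 and 12478 in fraction 1 livers, 10090 and 11585 in fraction 2 livers, and 12048 and 12730 in control livers, a log2 difference of 0.02 for fraction 1 and -0.20 for fraction 2 against control. Cox7c was dim on its tested probe set, 55.9 to 159.7 over the 6 arrays, and its -0.54 for fraction 2 had an SE of 0.46.

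Several complex IV subunits exist as tissue isoforms, and those of heart and skeletal muscle were dim in these livers. Cox7a1, a heart and muscle isoform, had 148.3 and 146.8 in fraction 1 livers, 85.0 and 77.7 in fraction 2 livers, and 131.2 and 133.1 in control livers. The replicates lay close together and the 3 groups did not overlap. Both fraction 2 signals were below the filter level of their arrays, 92.5 and 95.9. Cox7a1 was therefore tested only through its higher signals on the fraction 1 and control arrays. The log2 difference was 0.75 (SE 0.30, adjusted p = 0.587) between the fractions, -0.61 (adjusted p = 0.747) for fraction 2 and 0.14 (adjusted p = 0.907) for fraction 1 against control. The test moderates each spread with that of other probe sets of like brightness. Cox6a2, the other tested heart and muscle isoform, had 360.0 and 391.8 in fraction 1 livers, 391.1 and 254.6 in fraction 2 livers, and 214.4 and 270.2 in control livers, a log2 fold change of 0.61 (SE 0.25, adjusted p = 0.372) for fraction 1 against control. Cox8b, a muscle isoform below the filter, had 50.1 and 33.8 in fraction 1 livers, 18.5 and 67.4 in fraction 2 livers, and 19.3 and 209.7 in control livers. Cox6b2, a testis isoform below the filter, had 45.2 and 61.9 in fraction 1 livers, 14.7 and 58.4 in fraction 2 livers, and 68.0 and 143.2 in control livers. Cox4i2, the isoform known from lung, gave 0.06 for fraction 1 and -0.27 for fraction 2 against control, and Cox8c, known from testis, -0.36 and -0.29.

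Genes of the sarcomere varied between arrays beside these isoforms. The summed signal of 12 sarcomere markers was 3184 and 3245 in fraction 1 livers, 3555 and 1732 in fraction 2 livers, and 1997 and 4784 in control livers, so control array 2 was highest for this sum and for Cox8b, while the order of the arrays for Cox7a1 and Cox6a2 was another. Of the list, 9 were tested, and 9 were above 0 for fraction 1 against fraction 2, where 4863 of 9209 tested genes were. Their values ran from 0.015 to 1.499 with a median SE of 0.438. Both fraction 1 arrays lay above both fraction 2 arrays for 3 of the 9, where all tested genes gave 25.9%. Of the heavy chain genes, Myh4, Myh6 and Myh7 stayed below the filter, at 2.9 to 117.6. Ucp1, which defines brown fat, was at 4.4 to 9.0 on all 6 arrays. The part of muscle RNA in the isoforms' values was not tested.

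**Figure D4:**
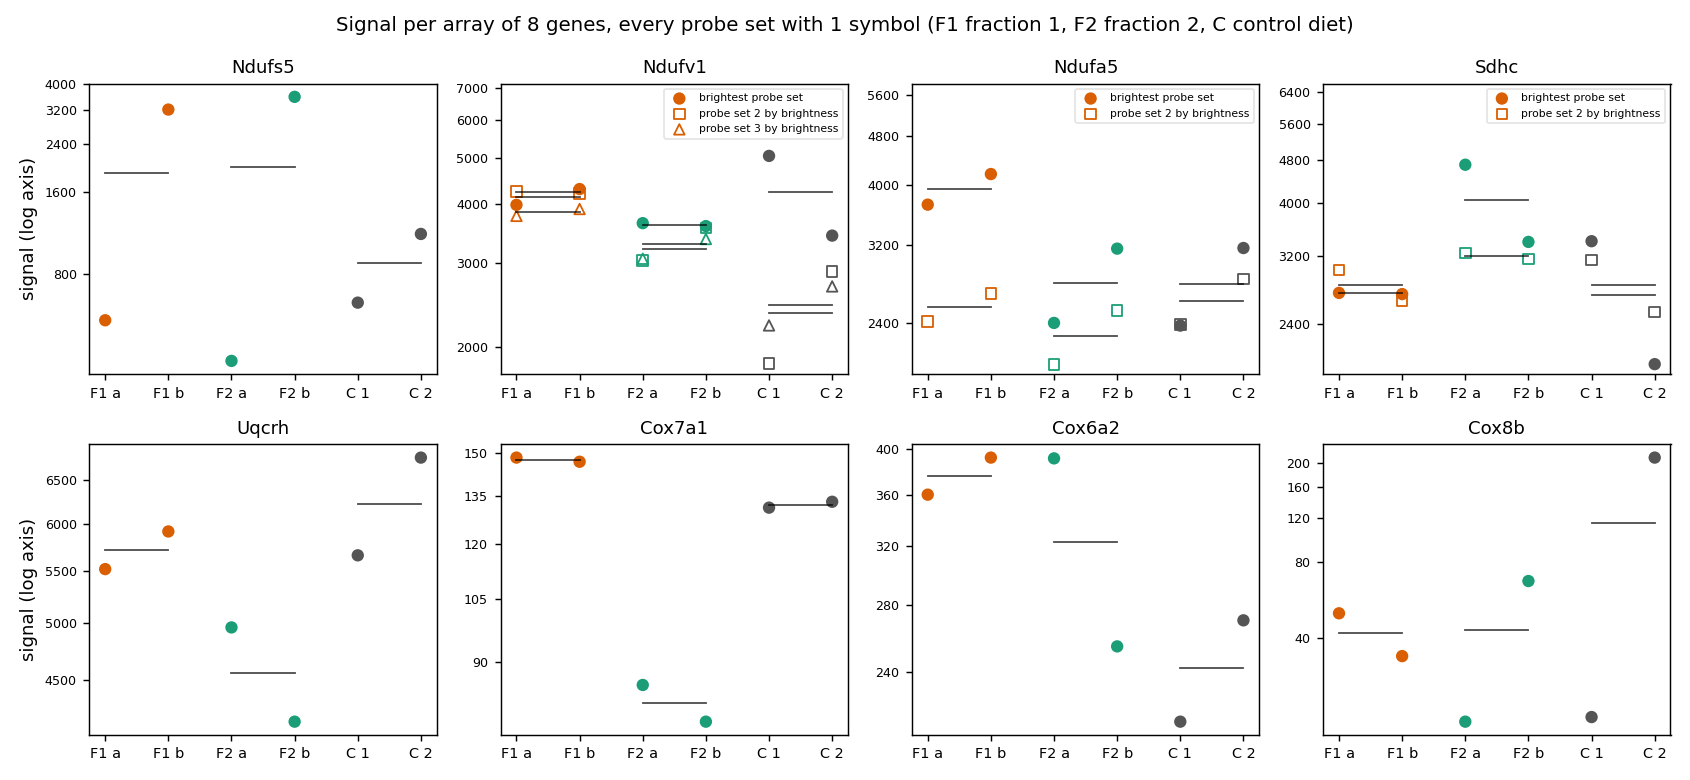
Signal per array (log axis) of 8 genes in fraction 1, fraction 2 and control livers, with every probe set that has 1 symbol and a line at each group's mean. Ndufs5 is high on both b arrays, the probe sets of Ndufv1 and Ndufa5 disagree for fraction 1 against control, and Cox7a1 has 3 groups that do not overlap at signals of 77.7 to 148.3. The fraction 2 signals of Cox7a1 are below the filter level of their arrays.

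Complex V, ATP synthase, had 15 of 17 subunits below 0 for fraction 2 against control and 15 above 0 for fraction 1 against fraction 2, with medians of -0.09 and 0.14. Atp5c1, the gamma subunit of the central stalk, had 14644 and 14000 in fraction 1 livers, 12929 and 12331 in fraction 2 livers, and 15017 and 17235 in control livers. Both fraction 2 arrays were below all 4 others. The log2 fold change of Atp5c1 for fraction 2 against control was -0.35 (SE 0.12). Its adjusted p of 0.606 was the lowest among the members' brightest probe sets in that comparison. Over all tested probe sets of the members the lowest was 0.571, on a dim one of Cox5b with a log2 fold change of -0.73. The second probe set of Atp5c1, also dim, gave -0.03 for fraction 2 against control. Atp5g3, 1 of 3 genes for the subunit of the membrane ring, had 16405 and 15505 in fraction 1 livers, 13830 and 14357 in fraction 2 livers, and 16093 and 18348 in control livers, or -0.29 (adjusted p = 0.673) for fraction 2 against control. The other ring genes gave -0.22 for Atp5g1 and 0.08 for Atp5g2 (-0.16 on a second, dim probe set). The catalytic subunit gene Atp5b gave -0.07 for fraction 1 and -0.12 for fraction 2 against control, its partner Atp5a1 0.12 and -0.19 (-0.03 and 0.0 on its second probe set), Atp5d -0.06 and -0.06 (0.28 and 0.28 on its second probe set), and Atp5e 0.13 and 0.05. Against control, the intervals of all 17 subunits lay within a 2-fold change for both fractions.

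The 5 assembly factors matched by the rule showed no shared direction. For fraction 1 and fraction 2 against control, Ndufaf1 gave -0.28 and 0.04, Ndufaf3 -0.01 and -0.08, Ndufaf4 0.38 and 0.11 (-0.43 and -0.12 on its second probe set), Ndufaf5 -0.02 and -0.07, and Ndufaf7 0.02 and 0.11. Ndufaf1 had 593.8 and 589.8 in fraction 1 livers, 776.7 and 712.8 in fraction 2 livers, and 741.6 and 701.3 in control livers, so both fraction 1 arrays were below the other 4 (adjusted p = 0.588 against control).

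A wider list of 45 assembly factors of all complexes had 33 measured members, and 0 passed in any comparison. The largest values were against control, which both fractions share. Sdhaf4, which assists the flavoprotein of complex II, had 2674 and 2961 in fraction 1 livers, 2641 and 2687 in fraction 2 livers, and 1744 and 1513 in control livers. All 4 arrays of the fractions were above both controls, by 0.79 (log2, adjusted p = 0.0862) for fraction 1 and 0.71 (adjusted p = 0.373) for fraction 2. Coa7, a factor for complex IV, had 1134 and 837 in fraction 1 livers, 988 and 815 in fraction 2 livers, and 500 and 512 in control livers, or 0.93 (adjusted p = 0.112) and 0.81 (adjusted p = 0.495). Cox20, a chaperone of a core subunit of complex IV, had 2613 and 3176 in fraction 1 livers, 1592 and 2291 in fraction 2 livers, and 1572 and 1735 in control livers, or 0.80 (adjusted p = 0.159) for fraction 1 and 0.21 for fraction 2. Sdhaf2, which aids the attachment of the flavin to Sdha, gave -0.60 (adjusted p = 0.307) for fraction 1 against control. The list's median was 0.003 for fraction 1 and 0.11 for fraction 2 against control.

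The fuel supply to the chain gave the same count of 0. Of 17 measured genes of the TCA cycle and pyruvate oxidation, 0 passed in any comparison. Cs, citrate synthase, had 2795 and 2645 in fraction 1 livers, 2581 and 2596 in fraction 2 livers, and 1873 and 1449 in control livers, with the fractions above both controls by 0.72 (adjusted p = 0.136) and 0.65 (adjusted p = 0.512). Fh1, fumarate hydratase, lay below both controls in both fractions, with log2 fold changes of -0.31 (adjusted p = 0.387) for fraction 1 and -0.45 (adjusted p = 0.535) for fraction 2. Mdh2, mitochondrial malate dehydrogenase, had 6903 and 8254 in fraction 1 livers, 6082 and 5552 in fraction 2 livers, and 6040 and 5436 in control livers, or 0.40 (adjusted p = 0.312) for fraction 1 against control. ND5, the only mitochondrially encoded subunit gene with a probe set of 1 symbol, had 17852 and 15023 in fraction 1 livers, 15970 and 9444 in fraction 2 livers, and 11878 and 20065 in control livers, with overlapping groups in each comparison. Its log2 fold change was 0.09 (adjusted p = 0.945) for fraction 1 and -0.33 (adjusted p = 0.820) for fraction 2.

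All 6 tested hepatocyte markers were below 0 for fraction 2 against control, with a median of -0.39, and 0 passed. Their summed signal was 117356 and 105580 in fraction 1 livers, 99948 and 93729 in fraction 2 livers, and 119704 and 134214 in control livers, with both fraction 2 arrays the lowest and control array 2 the highest. For fraction 1 against control 4 of 6 were below 0 with a median of -0.22. Their part in the values of the subunits was not tested. Of the other cell type lists, macrophage, endothelial, stellate, biliary, fat and lymphocyte markers had 0 calls in each comparison. For fraction 1 against control, 8 of 10 macrophage, 4 of 6 endothelial and 4 of 5 stellate markers were below 0, where all tested genes gave 53.7%. Their medians were -0.18, -0.32 and -0.48, in this order. For fraction 2 against control these medians were -0.02, -0.04 and -0.08. The part of these cell types in the subunits' values was not tested. The biliary and fat lists each had 1 tested gene and the lymphocyte list 2, so a count of 0 says little there. The red cell list also had 1 tested gene, Alas2. Alas2, the haem synthesis gene of red cell precursors, fell in fraction 1 livers by 1.66 on the log2 scale (adjusted p = 0.0384), at 793.0 and 723.3 in fraction 1 livers and 2244 and 2610 in control livers.

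Regulators of mitochondrial biogenesis were measured for 15 genes, and 0 passed in any comparison. Ppargc1a, the coactivator PGC-1alpha, had 363.5 and 298.9 in fraction 1 livers, 249.5 and 158.1 in fraction 2 livers, and 212.9 and 183.7 in control livers, or 0.69 (adjusted p = 0.326) for fraction 1 and 0.008 for fraction 2 against control. Polg, the mitochondrial DNA polymerase, gave -0.45 (adjusted p = 0.353) for fraction 1 against control. Nrf1 and Gabpa, factors known to bind promoters of respiratory genes, gave -0.31 and -0.19 for fraction 1 and -0.43 and 0.09 for fraction 2.

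Because subunit genes are known to share promoter elements, the RefSeq promoter windows (GRCm38.p6, 250 bases before to 50 after the start) of 65 subunit genes were searched on both strands for the letters of 4 motifs: NRF1 (GCGCANGCG), ERR (TCAAGGTCA), YY1 (AAGATGGCG) and GABPA (CCGGAAGTG). The NRF1 letters were in 16 of 65 windows (24.6%), against 6.47% of 27025 windows of all genes and 13.4% of 7478 windows of tested genes. The ERR letters were in 2 windows (3.08%, against 0.407% and 0.308%), YY1 in 5 (7.69%, against 1.49% and 3.10%) and GABPA in 2 (3.08%, against 2.06% and 4.32%). Any of the 4 motifs was in 35.4% of the subunit windows, against 9.79% of the windows of all genes and 19.6% of those of tested genes. By complex the counts were 10 of 31 windows for complex I, 2 of 3 for II, 3 of 5 for III, 1 of 11 for IV and 7 of 15 for V. The windows of 3 genes described above are shown because between them they hold all 4 motifs. The motif letters are in capitals, and the windows are chr6:126849095-126849394, chr4:116075021-116075320 and chr2:73911277-73911576, all on the minus strand and written 5' to 3'. Ndufa9 holds the YY1 letters near its start, Uqcrh the GABPA letters and Atp5g3 the ERR letters followed by the NRF1 letters, these last 3 as their reverse complements.
Ndufa9: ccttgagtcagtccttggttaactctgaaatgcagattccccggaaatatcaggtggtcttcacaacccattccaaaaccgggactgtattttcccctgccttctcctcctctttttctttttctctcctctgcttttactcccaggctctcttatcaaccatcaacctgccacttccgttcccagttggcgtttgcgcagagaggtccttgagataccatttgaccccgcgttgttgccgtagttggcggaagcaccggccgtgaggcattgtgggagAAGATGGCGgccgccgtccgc
Uqcrh: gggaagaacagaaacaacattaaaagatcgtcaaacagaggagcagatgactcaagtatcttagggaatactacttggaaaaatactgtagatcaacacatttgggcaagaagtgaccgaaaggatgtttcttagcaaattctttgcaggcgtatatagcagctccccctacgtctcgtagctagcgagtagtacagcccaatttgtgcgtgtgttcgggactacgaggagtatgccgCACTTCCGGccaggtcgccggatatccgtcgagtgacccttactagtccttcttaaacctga
Atp5g3: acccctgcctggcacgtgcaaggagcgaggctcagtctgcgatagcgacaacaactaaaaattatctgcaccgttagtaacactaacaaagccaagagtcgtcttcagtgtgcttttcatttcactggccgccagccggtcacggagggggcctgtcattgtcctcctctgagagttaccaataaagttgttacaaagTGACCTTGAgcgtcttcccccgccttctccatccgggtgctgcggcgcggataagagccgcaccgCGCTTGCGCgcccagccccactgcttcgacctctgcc
For fraction 2 against control, the 23 tested subunits with any motif had a median of -0.09 with 18 below 0, and the 40 with none a median of -0.15 with 36 below 0. For fraction 1 against control the medians were 0.06 and -0.04. A match is a description of the letters in the window and not of a bound factor.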

How the data were processed

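Signals of 22690 probe sets on 6 Affymetrix arrays of mouse liver were used as deposited by the authors, 1 linear signal intensity per probe set and array. How they were summarised is not given in the sources used here. Detection calls were not used. Of the probe sets, 64 were controls and were left out; 20393 carried 1 gene symbol, 691 several and 1606 none, per the platform annotation, and no gene was named from several symbols. All 85 member genes matched the RefSeq gene table by Entrez ID. Groups were taken from the sample titles, and scan days (2) and chip lots (3) per the file headers of the authors' experiment files.

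Signals were put on the log2(signal + 16) scale. Probe sets that reached an array's 40th percentile on at least 2 of 6 arrays were tested, which left 14755 probe sets of 9209 named genes; a gene was represented by its brightest tested probe set (mean log2 value over the arrays). The 3 comparisons were fitted across all tested probe sets and all 6 arrays in R 4.3.3 with limma 3.58.1 (lmFit, eBayes with a variance trend, 3 residual and 5.43 prior degrees of freedom), two-sided, with Benjamini-Hochberg adjustment and a threshold of 0.05. Confidence intervals are 95% intervals of that fit. The procedure was tested on simulated data without scan day, chip lot or RNA quality differences. The changes planted there were larger than those of the members' brightest probe sets, so it does not show how well smaller changes are found. Precision is limited by the number of arrays.

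The members, the lists of genes and the motifs were chosen with earlier results of these data known, so lists are described by counts and medians beside those of all tested genes, with no test. The text names, per comparison and complex, the members with the largest log2 fold changes and smallest p, of which a selection is given, the core subunits, the tissue isoforms of complex IV and, from each other list, members with the smallest p. Marker genes of 9 cell types were examined. Alternatives were quantile normalization, median centring, a pseudocount of 1 or 64, signals floored at 50, omission of the filter or its move to the 60th percentile, omission of the variance trend, scan day or chip lot as a block, the first scan day alone, the compared groups alone, each array left out, other probe sets and the replicate letters as a block; the second scan day alone was added after seeing the data. Figures were made in matplotlib 3.10.9 (Python 3.11.15). Sequences are from RefSeq, build GRCm38.p6; where a gene has several windows the first listed was used.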

Additional observations from a re-analysis of the deposited data

How the results depend on the processing

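No oxidative phosphorylation gene passed the test in any alternative: the count of members called was 0 under each of 20 alternatives with fraction 1 against control, 20 with fraction 2 and 21 in the comparison of the fractions. The medians of the members moved more, beside a spread of 0.073 (SD) between replicate arrays. For fraction 1 against control the median was -0.006 and ran from -0.064 to 0.078 when each array was left out in turn, the ends being without control array 1 and without control array 2. For fraction 2 against control the median of -0.139 became -0.035 after quantile normalization, -0.024 after median centring and -0.047 on the second brightest probe set, with a range of -0.201 to -0.055 when each array was left out; it kept its sign under every alternative run. For fraction 1 against fraction 2 the median of 0.147 became 0.068 after quantile normalization, 0.063 after median centring, 0.067 with the scan day as a block and 0.074 with the chip lot as a block, again with the same sign under every alternative run. The cause was not tested. Median centring shifts members and all tested genes alike and leaves the distance between them unchanged. With the replicate letters as a replicate block between the fractions the median was 0.147 and 0 members were called; the letters were not shown to pair the arrays, since the a-minus-b differences of the fractions correlated at 0.03 over tested probe sets, while control array 1 minus 2 correlated at 0.296 with fraction 2 array a minus b, where control array 1 shares scan day and chip lot with fraction 2 array a, and control array 2 shares the scan day of array b, and the labels do not explain the letters. Of 1542 alternative values of named members, 1406 lay within 1 SE of the reported value and 136 lay further from it, with 0 passing the threshold. Some alternative values had the other sign, such as 7 of 18 for Ndufaf5 with fraction 1 and 5 of 20 for Sdha with fraction 2 against control. Others, such as those of Ndufa9 and Cox6a2 with fraction 1 against control, kept their sign throughout. With 1 array of a group left out, the remaining one takes its spread from the other groups. With 2 arrays a group, effects within the stated intervals cannot be told from 0, and probe sets near background, such as those of Cox7c, Cox8b and Cox6b2, carry little information.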

Other observations

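Genes that link the chain to its substrates and products were also measured. Of 15 mobile electron carrier and ubiquinone genes, 0 passed in any comparison. Etfa, a subunit of the flavoprotein that brings electrons from fatty acid oxidation, had signals of 5875 and 5210 in fraction 1 livers, 7376 and 6201 in fraction 2 livers, and 8087 and 7520 in control livers, a log2 fold change of -0.49 (limma, adjusted p = 0.196) for fraction 1 and -0.21 (adjusted p = 0.797) for fraction 2 against control. Coq8a, a kinase-like protein needed for ubiquinone synthesis, had 2509 and 1969 in fraction 1 livers, 2219 and 1317 in fraction 2 livers, and 1289 and 1107 in control livers, or 0.89 (adjusted p = 0.196) and 0.51 (adjusted p = 0.748). Cycs, cytochrome c, gave 0.37 (adjusted p = 0.494) and 0.20 (adjusted p = 0.837). Of 11 tested nucleotide and phosphate carriers and uncoupling genes, 0 passed in any comparison. Slc25a3, the phosphate carrier, had 11937 and 12203 in fraction 1 livers, 10856 and 10377 in fraction 2 livers, and 12153 and 16083 in control livers, a log2 fold change of -0.40 (adjusted p = 0.656) for fraction 2 against control, with both fraction 2 arrays below the other 4.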
